A study of Homo sapiens with 12 samples.

Results

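A set of 10 marker genes of the cerebellar granule lineage and of the molecular subgroups of medulloblastoma (MB) were followed in Daoy, a human MB cell line, grown with or without medium conditioned by astrocytes. The genes were ATOH1, ZIC1, BARHL1, SFRP1, PDLIM3, OTX2, EOMES, WIF1, KCNA1 and NPR3, 10 of the 19740 genes with a symbol on the array. Their probes were found by matching the RefSeq accession of each probe to these symbols, which gave 13 of 34127 probes, with 2 probes each for PDLIM3, KCNA1 and NPR3. The genes were chosen for their known role and not for a value measured here, although earlier results of these data were known at the time.

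MB arises in the cerebellum and is sorted by its transcriptome into WNT, SHH, group 3 and group 4 tumors. SHH tumors arise from granule neuron progenitors of the external granule layer, which depend on the transcription factor ATOH1 and proliferate in response to SHH from Purkinje cells. Group 3 and group 4 tumors are marked by OTX2, a homeobox factor of early brain patterning, and WNT tumors by targets and feedback inhibitors of beta-catenin signaling. The comparison bears on which of these marker genes Daoy cells express and whether conditioned medium moved their levels.

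Daoy cells were grown in astrocyte conditioned medium (ACM), collected from primary neonatal rat astrocytes in DMEM with serum, or in control DMEM with serum, for either 1 passage (P1) or 3 passages (P3), with 48 h per passage. Each medium and passage had 3 arrays, labelled replicate 1 to 3 and described in the labels as independent experiments, so all 12 arrays are of 1 cell line. Cy3-labelled RNA was read on single-colour Agilent arrays. A level below is log2 of the background-corrected intensity of a probe minus the 75th percentile of that array, so a level of 0 stands for that percentile, and levels are compared between arrays and never between probes. The scanner software called 74.2% to 94.6% of all probes well above background per array, and a probe called so on an array is written as detected there.

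Before the results, 2 features of the arrays need stating. The arrays lay on 3 slides, none of which held both media of 1 passage. P3 ACM replicate 1 lay with all P1 ACM arrays on slide 1, and P1 DMEM replicate 3 with all P3 DMEM arrays on slide 3. The other P1 DMEM arrays (replicates 1 and 2) and P3 ACM arrays (replicates 2 and 3) made up slide 2. Slide 2 had the smallest share of detected probes, 74.2% to 80.2%. On slide 1 the share was 90.9% to 94.6%, and slide 3 had 88.1% to 91.0%. The lowest level well above background on each array was higher on slide 2, at −6.09 to −5.53. It was −7.30 to −6.79 on slide 1 and −7.58 to −6.98 on slide 3. The deposited table of log2 values also conflicts with the scanner files, since 0 of its 12 columns ranked the probes most like the array with the same sample label. The correlation across probes was 0.953 to 0.992 with the array of the same label and at least 0.999986 with the array of another. Values below follow the labels of the scanner files, and the table, read by its own column labels, is given where a result depends on it.

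The promoters of the members whose levels moved together or passed a threshold are shown first. The promoter table of RefSeq (GRCh38.p14) spans 250 bases before to 50 after a gene start. From it 10 entries for 8 of the 10 genes were read, and SFRP1 and KCNA1 were not among them. NPR3 and WIF1 varied together over the arrays, and PDLIM3 was the member that passed the threshold in control cells. Each is written 5′ to 3′, and capitals mark every E-box, CANNTG, the letters to which bHLH factors such as ATOH1 and NEUROD1 bind.
NPR3 (chr5:32690622-32690921, plus strand): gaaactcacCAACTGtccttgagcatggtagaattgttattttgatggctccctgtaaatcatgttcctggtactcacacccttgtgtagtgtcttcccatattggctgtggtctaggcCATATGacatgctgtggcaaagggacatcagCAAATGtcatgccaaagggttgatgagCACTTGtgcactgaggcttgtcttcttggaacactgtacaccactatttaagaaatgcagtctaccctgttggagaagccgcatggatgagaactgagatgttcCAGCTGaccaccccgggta
NPR3 (chr5:32710399-32710698, plus strand): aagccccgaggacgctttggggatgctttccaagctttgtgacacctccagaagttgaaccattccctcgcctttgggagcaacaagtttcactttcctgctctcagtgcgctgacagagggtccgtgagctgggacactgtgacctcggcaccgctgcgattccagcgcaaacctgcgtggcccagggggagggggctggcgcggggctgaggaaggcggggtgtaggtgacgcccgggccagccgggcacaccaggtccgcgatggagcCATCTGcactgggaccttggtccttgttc
PDLIM3 (chr4:185535458-185535757, minus strand): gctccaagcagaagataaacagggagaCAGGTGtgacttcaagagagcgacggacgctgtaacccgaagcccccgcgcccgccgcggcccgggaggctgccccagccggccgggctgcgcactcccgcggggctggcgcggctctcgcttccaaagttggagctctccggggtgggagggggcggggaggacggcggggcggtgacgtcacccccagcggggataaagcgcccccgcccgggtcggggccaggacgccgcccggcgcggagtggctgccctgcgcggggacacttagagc
WIF1 (chr12:65121256-65121555, minus strand): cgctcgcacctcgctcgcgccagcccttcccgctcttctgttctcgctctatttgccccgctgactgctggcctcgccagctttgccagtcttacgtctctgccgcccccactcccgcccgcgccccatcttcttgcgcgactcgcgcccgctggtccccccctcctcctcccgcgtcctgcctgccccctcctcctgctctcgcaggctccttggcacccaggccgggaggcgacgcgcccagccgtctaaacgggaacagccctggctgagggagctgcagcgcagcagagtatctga

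The upstream NPR3 window held 5 E-boxes, the other NPR3 window 1, the PDLIM3 window 1 and the WIF1 window 0. Across 35116 promoters of the same length, 68.7% held at least 1 on either strand, so most windows carry these letters. The MYC type of E-box, CACGTG, stood in 7.26% of promoters and among the 8 members read only in that of ZIC1. ATCAAAG, read by the TCF and LEF factors of WNT signaling, stood in 2.62% of promoters and among the same members only in that of ATOH1. The OTX letters TAATCC stood in 6.36% of promoters and the GLI letters GACCACCCA in 0.236%, and 0 of the 10 member entries held either of them. These are matches of letters in short windows only.

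Not all of these markers were detected. BARHL1, SFRP1, PDLIM3, OTX2 and EOMES had a probe detected on all 12 arrays, 5 of 10, whereas 78.7% of the 19740 genes with a symbol did. ZIC1, WIF1, KCNA1 and NPR3 were detected on 11 arrays. For each the array that missed was P1 DMEM replicate 1 on slide 2, the array with the smallest share of detected probes. ATOH1 was detected on 2 arrays, P1 ACM replicate 3 and P3 DMEM replicate 3, which belong to different media and passages. Its level on the other 10 arrays is therefore only a bound, and no fold could be given for it between groups.

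Among the members, 7 belong to a known set of 22 genes that sorts MB into subgroups, and the other 15 of that set were read as well. Of 5 SHH genes 4 were detected on all 12 arrays, the exception being ATOH1. For WNT this held for 3 of 5 genes, for group 3 for 5 of 6 and for group 4 for 3 of 6. KHDRBS2, a group 4 gene, was detected on 0 arrays. Detection thus did not single out one subgroup, and 15 of the 22 genes (68.2%) were detected on all arrays, below the 78.7% of all genes.

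**Figure D1:**
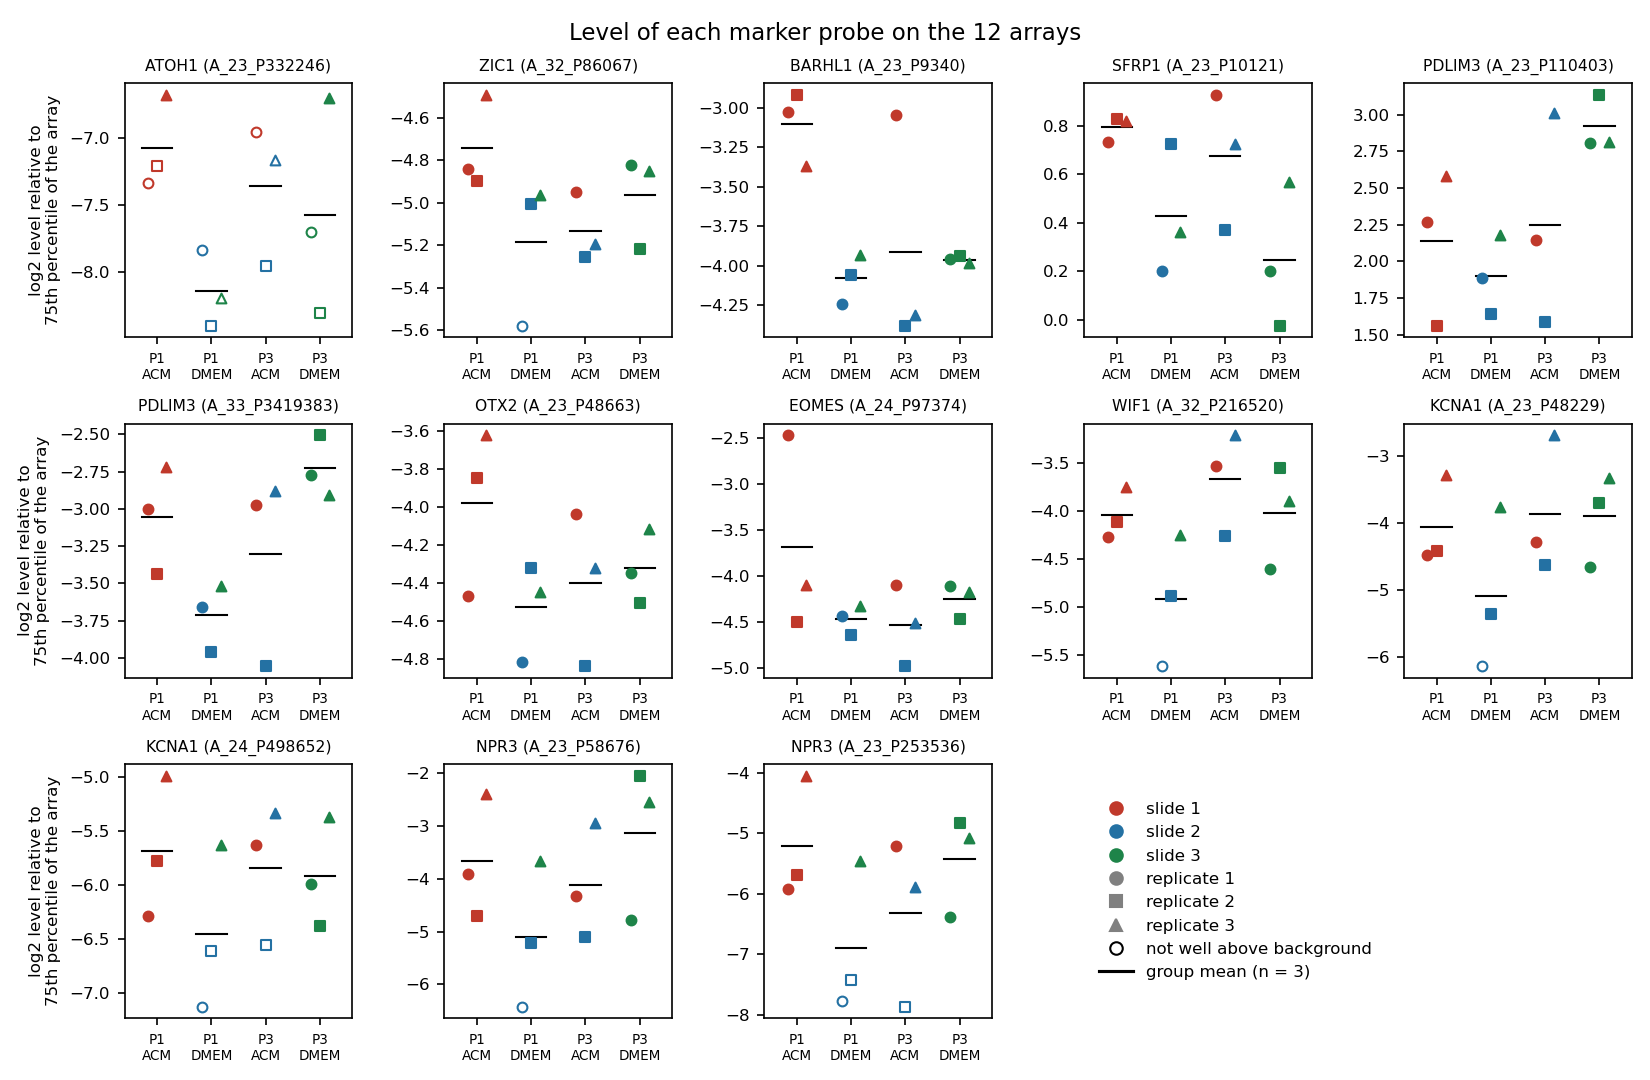
Level of each of the 13 marker probes on the 12 arrays (y axis, log2 units above the 75th percentile of that array; the scale differs between panels) by medium and passage (x axis). Color marks the slide, shape the replicate number, open symbols arrays where the probe was not well above background, and bars the mean of 3 arrays. ATOH1 is filled on 2 arrays only, the 4 arrays of slide 1 stand apart for BARHL1, and for both PDLIM3 probes all P3 DMEM arrays lie above all P1 DMEM arrays.

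The granule lineage factors were followed first. ATOH1 had levels of −7.34, −7.21 and −6.68 in P1 ACM, −7.84, −8.40 and −8.20 in P1 DMEM, −6.95, −7.95 and −7.17 in P3 ACM and −7.71, −8.31 and −6.71 in P3 DMEM. The P1 ACM arrays lie above the P1 DMEM arrays, but 0 of 3 DMEM arrays and 1 of 3 ACM arrays were detected there, so the order is among values at or near background.

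ZIC1, a zinc finger factor of granule progenitors, had levels of −4.84, −4.90 and −4.49 in P1 ACM against −5.58, −5.01 and −4.96 in P1 DMEM. At P3 they were −4.95, −5.26 and −5.20 in ACM against −4.82, −5.22 and −4.85 in DMEM. The P1 arrays did not overlap between media and the P3 arrays did. The difference at P1 was 0.44 (SE 0.21, 95% interval −0.03 to 0.91, adjusted p = 0.250) and its sign turned after quantile normalization, to −0.32.

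BARHL1, a homeobox factor of migrating granule cells, had the smallest P1 p-value among the tested members. Its levels were −3.03, −2.92 and −3.37 in P1 ACM and −4.24, −4.06 and −3.93 in P1 DMEM, so all P1 ACM arrays were above all P1 DMEM arrays. At P3 the levels were −3.05, −4.38 and −4.31 in ACM and −3.96, −3.94 and −3.98 in DMEM. The high P3 ACM array is replicate 1, the only P3 array on slide 1, and the 4 arrays of slide 1 lay between −3.37 and −2.92 while the other 8 lay between −4.38 and −3.93.

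The P1 difference of BARHL1 was 0.97 (SE 0.31, interval 0.30 to 1.65, adjusted p = 0.106), or 1.96-fold, just short of 2-fold. The adjusted p rested on the spread of the P3 arrays. In a fit of the 6 P1 arrays alone the SE was 0.17 (adjusted p = 0.0106), and without P3 ACM replicate 1 it was 0.16 (adjusted p = 0.00177), with the fold unchanged and so still under 2-fold. The difference between the P3 and P1 effects was −0.93 (SE 0.43, interval −1.88 to 0.03), and without P3 ACM replicate 1 it was −1.36 (SE 0.24, adjusted p = 0.00344) and was called. Blocked for slide the P1 difference was −0.25, where it rests on P3 ACM replicate 1 against the P1 ACM arrays within slide 1 and on slide 2. Within slide 1, P3 ACM minus P1 ACM was 0.06, and within slide 2, P3 ACM minus P1 DMEM was −0.19. Over the 12 arrays its level followed the share of detected probes per array (r = 0.75), as did that of ZIC1 (r = 0.79), OTX2 (r = 0.70) and the second probes of NPR3 (r = 0.84) and PDLIM3 (r = 0.65), the other probes lying between 0.25 and 0.60, and the part of slide in these values cannot be told apart from that of medium at P1.

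Of the SHH genes, SFRP1 and PDLIM3 were detected on every array. SFRP1, a secreted antagonist of WNT ligands, had levels of 0.73, 0.83 and 0.82 in P1 ACM and 0.20, 0.73 and 0.36 in P1 DMEM. At P3 they were 0.93, 0.37 and 0.72 in ACM and 0.20, −0.03 and 0.57 in DMEM. ACM was higher on average at both passages, the P1 arrays separating by less than 0.01 and the P3 arrays overlapping. The differences were 0.36 (SE 0.21, 95% interval −0.10 to 0.83) at P1 and 0.43 (SE 0.21, interval −0.04 to 0.89) at P3, and neither passed, both intervals holding 0 (adjusted p = 0.359 and adjusted p = 0.703).

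PDLIM3, an actin-associated PDZ and LIM domain protein, had levels of 2.27, 1.56 and 2.58 in P1 ACM, 1.89, 1.64 and 2.18 in P1 DMEM, 2.15, 1.59 and 3.01 in P3 ACM and 2.81, 3.14 and 2.82 in P3 DMEM. In control cells all 3 P3 arrays were above all 3 P1 arrays. The ACM arrays of both passages spanned a similar range, and 1 P3 ACM array was as high as the P3 DMEM arrays. The second PDLIM3 probe showed the same order in DMEM, with −3.66, −3.96 and −3.52 at P1 and −2.77, −2.50 and −2.91 at P3.

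OTX2, the group 3 and 4 factor, was detected on all arrays at −4.47, −3.85 and −3.62 in P1 ACM, −4.82, −4.32 and −4.45 in P1 DMEM, −4.04, −4.84 and −4.32 in P3 ACM and −4.35, −4.51 and −4.12 in P3 DMEM. The groups overlapped at both passages. Its difference was 0.55 (SE 0.27, interval −0.04 to 1.14) at P1 and −0.07 (interval −0.66 to 0.52) at P3. EOMES, a T-box factor of cerebellar glutamatergic neurons and a group 4 gene, lay between −4.98 and −4.09 on 11 arrays and at −2.47 on P1 ACM replicate 1. That 1 array carried most of its P1 difference of 0.78 (SE 0.44, adjusted p = 0.331), and without P1 ACM replicate 2, its lowest P1 ACM array, the difference was 1.19 and was called (adjusted p = 0.275).

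WIF1, a secreted inhibitor that binds WNT ligands and marks WNT tumors, had levels of −4.27, −4.12 and −3.76 in P1 ACM, −5.61, −4.88 and −4.26 in P1 DMEM, −3.54, −4.26 and −3.21 in P3 ACM and −4.60, −3.56 and −3.90 in P3 DMEM. The lowest value is P1 DMEM replicate 1, where the probe was not detected. The P1 media overlapped by about 0.01, and the difference was 0.87 (SE 0.39, interval 0.02 to 1.72, adjusted p = 0.210), less than 2-fold. It was 0.22 after quantile normalization and 0.083 with normexp background correction before it.

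KCNA1, a voltage-gated potassium channel and group 4 gene, had levels of −4.47, −4.42 and −3.28 in P1 ACM, −6.14, −5.37 and −3.76 in P1 DMEM, −4.29, −4.64 and −2.70 in P3 ACM and −4.66, −3.71 and −3.34 in P3 DMEM. In every group replicate 3 was the highest array, while the media overlapped at both passages. The P1 difference was 1.03 (SE 0.66, interval −0.43 to 2.49, adjusted p = 0.418). With the replicate as a block, an alternative that treats the replicate numbers as pairs, the same difference had an SE of 0.32 and passed the threshold (adjusted p = 0.127). It also passed with slide as a block, at 2.32 (SE 1.02, adjusted p = 0.947).

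NPR3, the clearance receptor of natriuretic peptides and a group 3 gene, ranged widest, at −3.91, −4.71 and −2.39 in P1 ACM, −6.42, −5.22 and −3.67 in P1 DMEM, −4.32, −5.10 and −2.95 in P3 ACM and −4.78, −2.05 and −2.55 in P3 DMEM. The media overlapped at both passages. Its differences were 1.44 (SE 0.91, interval −0.57 to 3.44) at P1 and −0.998 (SE 0.91, interval −3.00 to 1.00) at P3, both of which hold 0.

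A gene was taken as called where it was more than 2-fold changed with an unadjusted p of 0.05 or less, the threshold of the study. In the fit without a block, 0 of the 9 tested members were called at P1, where 13.6% of the 25270 genes tested were. At P3, 0 of 9 were called and 1.73% of all genes, and for the difference between the P3 and P1 effects 0 of 9 and 6.87%. By unadjusted p alone, BARHL1 and WIF1 passed at P1 and 0 members at P3 or for the difference between passages. After Benjamini-Hochberg adjustment in limma, 0 of all 25270 genes had a p of 0.05 or less in any of these comparisons, while 6066 had an unadjusted p of 0.05 or less at P1, 1837 at P3 and 2086 for the difference between passages. The adjusted count at P1 depended on the arrays in the fit. It was 4844 with the 6 P1 arrays alone and 5183 without P3 ACM replicate 1, BARHL1 being the only tested member with an adjusted p of 0.05 or less in either, and 2103 by the methods' t-test, with 0 members. For the difference between passages it was 4125 without P3 ACM replicate 1.

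Across the members the median difference at P1 was 0.78, against 0.15 over all genes, and at P3 −0.07 against 0.00. Both P1 medians depended on the scaling and after quantile normalization were 0.31 for the members, which ranged from −0.32 to 0.77, and 0.00 for all genes. Arrays of ACM and DMEM did not overlap for 3 of 9 members at P1, all higher in ACM (ZIC1, BARHL1 and SFRP1), where 36% of all genes did not overlap. At P3 this held for 0 of 9 members and 9.77% of all genes. The second probes of PDLIM3 and NPR3 had a difference between the P3 and P1 effects of −1.24 (interval −2.20 to −0.27, adjusted p = 0.626) and −2.57 (interval −5.09 to −0.05, adjusted p = 0.633). The first probes did not pass, at −0.91 (interval −2.01 to 0.20) and −2.43 (interval −5.26 to 0.40).

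**Figure D2:**
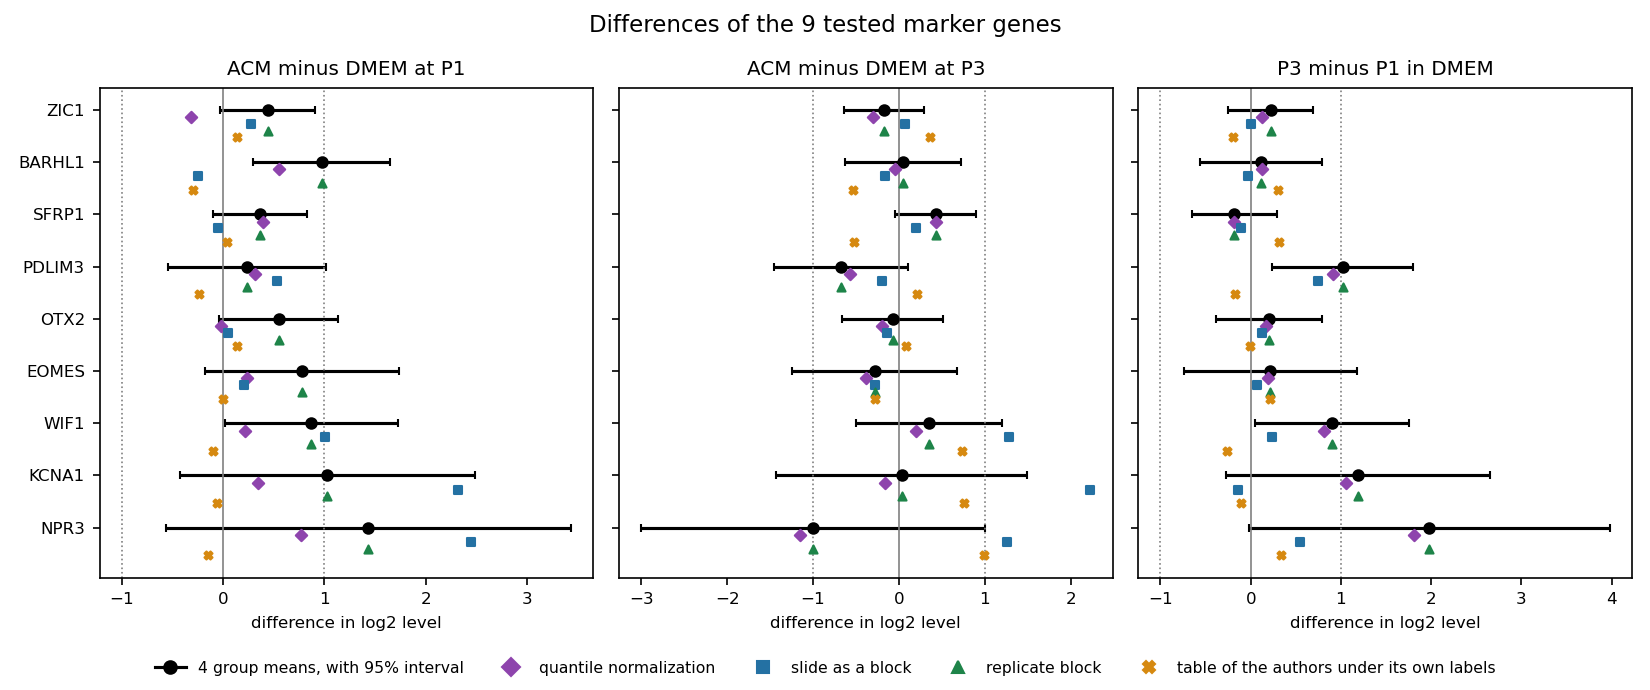
Difference in log2 level (x axis) for the 9 tested marker genes (y axis) between ACM and DMEM at P1, at P3, and between P3 and P1 in DMEM. Black points with 95% intervals come from the fit of 4 group means to the 12 arrays, colored symbols from 4 other settings, and dotted lines mark 2-fold. Among the black points, only PDLIM3 in DMEM, at 1.02, is both past 2-fold and has an interval that leaves out 0. KCNA1 and NPR3 also lie past 2-fold at P1 and in DMEM, with intervals that hold 0.

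In the fit without a block, passage in control medium was the comparison with a called member. PDLIM3 was 1.02 higher in P3 than in P1 DMEM (SE 0.35, interval 0.24 to 1.80, 2.03-fold, adjusted p = 0.571), 1 of 9 members where 1.72% of all genes were called. Its second probe gave 0.99 (SE 0.31, interval 0.30 to 1.67), just under 2-fold. Quantile normalization gave 0.91 (SE 0.34), and slide as a block gave 0.74 (SE 0.52), which compares P3 DMEM with P1 DMEM replicate 3 on slide 3 alone. The deposited table gave −0.17, and the call was also lost without P1 DMEM replicate 2 or P3 DMEM replicate 2. WIF1 was higher by 0.90 in P3 DMEM (interval 0.05 to 1.75) and NPR3 by 1.98 (interval −0.02 to 3.98), neither past both thresholds.

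Leaving out a single array decided several of these calls. Without P1 DMEM replicate 3, the P1 differences of BARHL1, WIF1, KCNA1 and NPR3 were 1.05, 1.20, 1.69 and 2.15 and all 4 were called, beside 15.9% of all genes. The same omission called PDLIM3, WIF1, KCNA1 and NPR3 between passages in DMEM, at 1.16, 1.23, 1.85 and 2.69, beside 3.8% of all genes. Without P1 ACM replicate 3 BARHL1 was called at P1 (1.11), and without P3 ACM replicate 3 PDLIM3 was lower in ACM at P3 (−1.05, adjusted p = 0.270). EOMES, as given above, was called without P1 ACM replicate 2. NPR3 was called between passages in DMEM also without P1 ACM replicate 3 or P3 ACM replicate 3 (1.98 in both), and without P3 DMEM replicate 1 (2.80), where WIF1 was called too (1.19).

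For the difference between the P3 and P1 effects, 6 of the 12 omissions called a member, each time with a lower effect at P3, while they called 4.96% to 18.9% of all genes. NPR3 was called without P3 ACM replicate 3 (−3.02), P1 DMEM replicate 3 (−3.15) or P3 DMEM replicate 1 (−3.26). PDLIM3 was called without P1 ACM replicate 2 (−1.196) or P3 ACM replicate 3 (−1.29), EOMES without P1 ACM replicate 2 (−1.47), and BARHL1 without P1 ACM replicate 3 (−1.06) or P3 ACM replicate 1 (−1.36).

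The spread between arrays of the same group set the members apart from one another. The residual SD of NPR3 was 1.28 on the log2 scale, larger than that of 99.4% of the genes tested, and that of KCNA1 was 0.93, larger than 96.2%. EOMES (0.60), WIF1 (0.52) and PDLIM3 (0.47) lay above 82.2%, 76.7% and 71.9% of genes. ZIC1 and SFRP1 (both 0.25) were quieter than the median gene, at 0.33.

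WIF1, KCNA1 and NPR3, markers of 3 different subgroups, varied together. Over the 12 arrays Pearson's r was 0.90 for WIF1 with KCNA1, 0.81 for WIF1 with NPR3 and 0.90 for KCNA1 with NPR3, and 0.76 for PDLIM3 with NPR3. After the group means were subtracted the first 3 values were 0.89, 0.92 and 0.92. The points share arrays, slides and P1 DMEM replicate 1, the array with the smallest share of detected probes, so these are descriptions without a test. With the second probes of KCNA1 or NPR3 the values between these 3 genes were lower, from 0.69 to 0.79. After quantile normalization they were 0.76 to 0.88 for the first probes and 0.31 to 0.68 with a second probe. Pairs that held at least 1 gene outside these 3 reached similar values over the arrays, such as ZIC1 with OTX2 (0.80), and OTX2 with the second KCNA1 probe (0.79). BARHL1 had an r of 0.07 and 0.33 with the 2 probes of KCNA1 and 0.12 and 0.52 with those of NPR3, which after quantile normalization were −0.39, −0.69, −0.23 and 0.15.

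**Figure D3:**
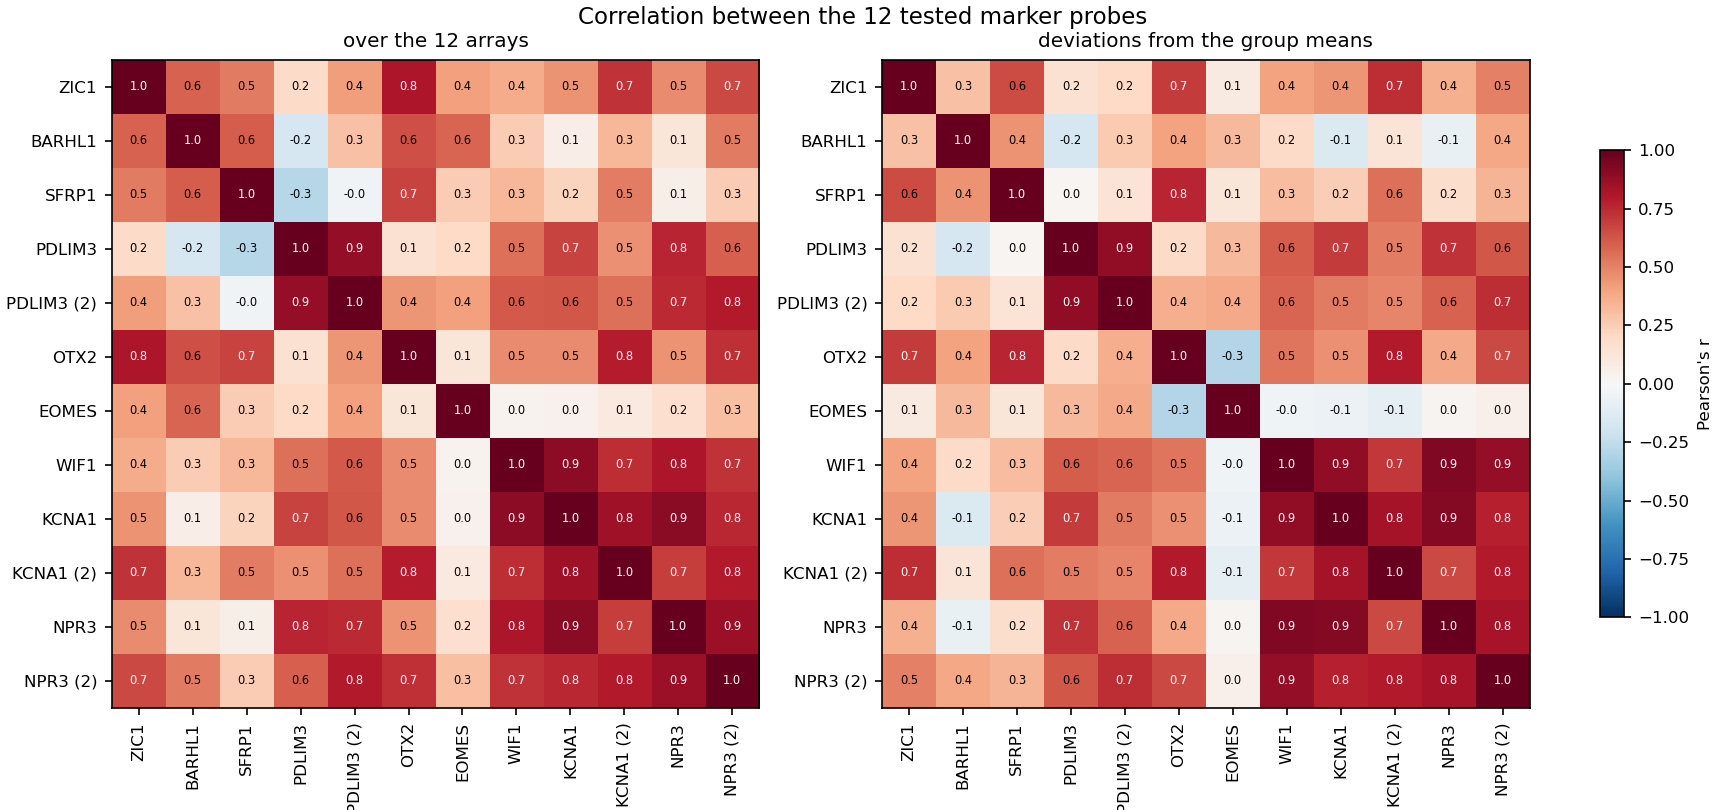
Pearson's r between the 12 tested marker probes over the 12 arrays (left) and between their deviations from the group means (right); the number in each cell is r, and (2) marks a second probe of a gene. Between WIF1, KCNA1 and NPR3, r over the arrays was 0.81 to 0.90 for the first probes and 0.69 to 0.79 where a second probe was one of the pair.

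Part of this variation followed the replicate number. KCNA1 was highest in replicate 3 in 4 of 4 groups, and WIF1, NPR3 and PDLIM3 in 3 of 4, P3 DMEM replicate 2 being the exception for each. EOMES was lowest in replicate 2 in 4 of 4 groups. An F-test of the replicate number within the limma fit, chosen after these levels were seen, gave a p of 0.05 or less for 3 of 9 members, KCNA1, NPR3 and EOMES, and for 13.1% of all genes. The second NPR3 probe did not pass (adjusted p = 0.490) and was highest in replicate 3 in 2 of 4 groups, while the second KCNA1 probe was highest there in 4 of 4. For KCNA1, replicate 3 lay 1.44 above the mean of the others (SE 0.24, adjusted p = 0.0654 for the F-test). For NPR3 it lay 1.67 above (SE 0.48, adjusted p = 0.262), and for WIF1 0.57 above (SE 0.24, adjusted p = 0.446).

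A step between replicate numbers was also seen in MYCN, a MYC family factor that is amplified in some MB. Its levels were −4.11, −3.17 and −1.33 in P1 ACM, −4.70, −2.43 and −1.48 in P1 DMEM, −4.46, −2.80 and −1.35 in P3 ACM and −3.33, −1.64 and −1.004 in P3 DMEM. In 4 of 4 groups replicate 1 was lowest and replicate 3 highest, and replicate 3 exceeded replicate 1 by 2.86 on average (F-test adjusted p = 0.00868). MYCN and this test were chosen after the levels were seen, so the p-value only describes the pattern. ACM minus DMEM for MYCN was 0.01 (SE 1.04) at P1 and −0.88 (SE 1.04) at P3, which with slide as a block were 3.09 and 2.00. Over the 12 arrays the level of MYCN had an r of 0.76 with KCNA1, 0.75 with NPR3, 0.51 with WIF1 and 0.49 with PDLIM3.

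The replicate number was not shown to mark a shared culture or day, since the labels speak only of independent experiments. In all, 206 genes had an F-test adjusted p of 0.05 or less under the labels of the scanner files. Blocking for slide left 6 genes, and the deposited table gave 0 genes and 0 members, where 1164 genes had an unadjusted p of 0.05 or less. Which set of labels is right was not tested, and the pattern is given for the labels of the scanner files.

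**Figure D4:**
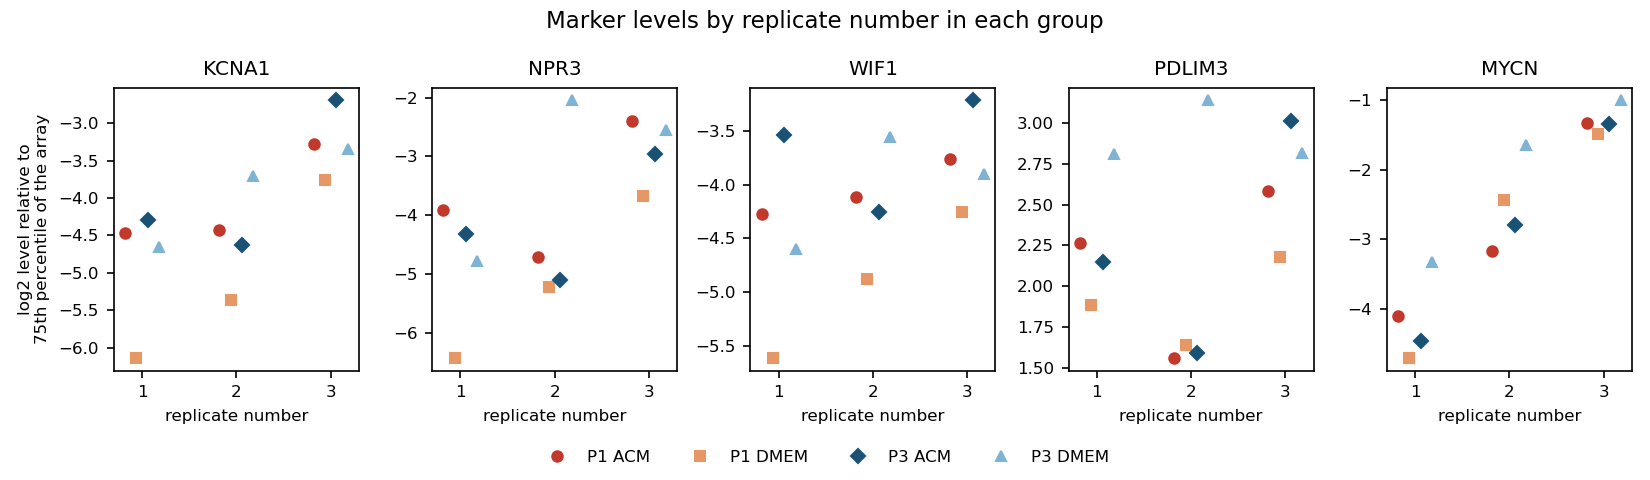
Level (y axis, log2 units above the 75th percentile of that array) of KCNA1, NPR3, WIF1, PDLIM3 and MYCN by replicate number (x axis, a name without order), with 1 symbol for each medium and passage; the scale differs between panels. KCNA1 and MYCN are highest in replicate 3 in all 4 groups, while P3 DMEM replicate 2 is the highest P3 DMEM array for NPR3, WIF1 and PDLIM3.

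For each member detected on all 12 arrays, the genes most like it over the arrays were sought among 15534 genes. BARHL1 ran closest with PRR27 (r = 0.99), LRRN4CL and NCF4 (both 0.98), and SFRP1 with ESX1 (0.93), PRR5 and HAGHL (both 0.92). PDLIM3 ran closest with PLPP1 and ZNF285 (both 0.96) and PCCA (0.95). OTX2 was most like PCDHB4 (0.92), GPR20 (0.91) and ADA2 (0.90), and EOMES most like KCNA10 (0.91), NR0B2 (0.89) and ACAN (0.86). With 12 arrays on 3 slides such values arise among many genes, and the lists are a description.

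The other genes of the granule lineage gave the setting for these markers. Of 21 listed genes, 15 were detected on all 12 arrays, a share below the 78.7% of all genes with a symbol. Among the 15 were EN1, EN2, PAX6, MEIS1, MEIS2 and ZIC2 to ZIC5, factors of cerebellar and granule cell patterning. NEUROD1, a bHLH factor of differentiating granule neurons, was detected on 3 arrays, and GABRA6, a receptor subunit of mature granule neurons, on 1. At P1, 3 of 19 tested genes were called higher in ACM and 0 lower, a share near the 13.6% of all genes, of which 3414 of 3439 were higher. They were CNTN2 (1.47, SE 0.43), an adhesion protein of migrating granule neurons, RBFOX3 and NEUROD2. RBFOX3 and NEUROD2 were each detected on 3 of 3 P1 ACM, 1 of 3 P1 DMEM and 3 of 3 P3 DMEM arrays. Blocked for slide, CNTN2 was −0.27. At P3, 0 of 19 were called in either direction, beside 1.73% of all genes. ZIC2 was lower in P3 than in P1 DMEM (−1.16, SE 0.41), 1 of 19 beside 1.72% of all genes.

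Among 19 further subgroup genes, 17 were tested and 5 were called higher in ACM at P1, where 13.6% of all genes were called. The only one detected on all arrays was LMX1A, a factor of the rhombic lip (1.14, SE 0.34). NKD1, a feedback inhibitor of WNT signaling, rose by 1.21 (SE 0.27), and the others were FSTL5, SAG and TBR1. These 3 were kept through P1 ACM alone, where they were detected on 3 of 3 arrays, against 0, 0 and 1 of 3 P1 DMEM arrays. A gene kept this way could pass by being high there, so their fitted differences are not given and their calls are no sign of a rise. Against the lowest signal well above background on each P1 DMEM array FSTL5 was at least 1.74-fold higher, which is a description only, and SAG did not exceed that bound. The P1 media shared no slide, so the part of slide in this fold cannot be told apart from that of medium. In the fit with slide as a block LMX1A was at 0.11 and NKD1 at 0.19. FSTL5, detected on 5 arrays, had the opposite sign there, at −0.77. MYC, LEF1 and LHX2 were detected on all arrays and did not pass at either passage. AXIN2 (0.82, SE 0.24, adjusted p = 0.103) and SNCAIP (0.81, SE 0.26, adjusted p = 0.107), also detected on all arrays, were higher in ACM at P1 by less than 2-fold. With slide as a block they were at 0.70 and 0.05. By unadjusted p of 0.05 or less alone, 8 of the 17 passed at P1, all higher, beside 6066 of all 25270 genes. At P3, 1 of 17 genes passed the threshold, beside 1.73% of all genes. It was SAG, detected on 1 of 3 ACM and 0 of 3 DMEM arrays, so no fold is given. In P3 against P1 DMEM the WNT antagonist DKK1 was lower (−1.26, SE 0.32), 1 of 17 beside 1.72% of all genes.

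Of the other genes of the 22-gene set, IMPG2, a group 3 gene, was called higher in ACM at P1 (1.14, SE 0.49, with slide as a block −0.66). RBM24, a group 4 gene, was called higher in ACM at P3 (1.25, SE 0.48, with slide as a block 0.29). Each was 1 of 14 tested, beside 13.6% of all genes at P1 and 1.73% at P3. Astrocyte markers were read because ACM comes from astrocyte cultures. GFAP, their defining marker, had no probe detected on all arrays of any group. Of 9 markers 5 were detected on all arrays, beside 78.7% of all genes with a symbol. At P1 ALDH1L1 (1.65), S100B and GJB6 were called higher and AQP4 (−1.37) lower, 4 of 8 tested, beside 13.6% of all genes. S100B and GJB6 were detected on 3 of 3 arrays of both P1 ACM and P3 DMEM, and on 0 and 1 of 3 P1 DMEM arrays. By the same bound S100B was at least 2.21-fold higher in P1 ACM than in P1 DMEM. Blocking for slide, ALDH1L1 was 0.27, GJB6 0.12 and AQP4 −1.47, while S100B had the opposite sign, at −0.18. At P3, 1 of 8 was called, beside 1.73% of all genes. It was AQP4, again lower (−1.94, SE 0.60, with slide as a block −3.36). The conditioning astrocytes were rat cells, and the part of their RNA in these values was not tested.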

How the data were processed

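The 12 single-colour Agilent arrays of Daoy cells were read, 3 for each medium and passage, grouped by the labels. Per the file headers, the deposited scanner output holds background-corrected spot intensities, made with Agilent Feature Extraction (version 11.0.1.1 in the submitters' processing notes) and not scaled between arrays. A second file of the authors holds log2 values for 30569 probes on the 12 arrays. It covers 12 of the 13 member probes, without ATOH1, and its column labels conflict with those of the scanner files, so it served only as an alternative.

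Control spots (1377 per array) and outlier spots were left out, spots of a probe averaged, and the 75th percentile of each array subtracted from log2 intensity. Probes detected on every array of at least 1 group were kept (31073, of 25270 genes), which left out ATOH1. A member that passed through 1 group alone could do so by being high there. A gene was counted through its kept probe with the highest mean signal. Symbols came from RefSeq of GRCh38.p14, used for names, and matched 25771 probes (75.5%).

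A single fit of 4 group means to the 12 arrays was made in limma 3.58.1 (R 4.3.3), and its two-sided moderated p-values were adjusted by Benjamini-Hochberg over all kept probes. The arrays of a group are labelled as separate experiments, and 3 arrays per group limit the precision. The script was tested on simulated data. Deviations from the group means correlated between same-numbered samples by 0.19 to 0.43 at P1, so the replicate block, an alternative, took the numbers to pair those samples. The main fit held no block. At P3 this was −0.19 to 0.23, and between the DMEM passages −0.03 to 0.48.

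The members and the lists (the other genes of the 22-gene set, granule lineage, further subgroup genes, astrocyte markers) were chosen with earlier results of these data known. The rule named at most 4 called genes per list, those detected on all arrays first, and the 3 genes most like each member detected on all arrays. MYCN and the genes named from the lists beyond that rule were chosen after their values were seen. Alternatives were quantile normalization, normexp (offset 50), the table, no filter or a stricter filter, only the arrays compared, trend and robust eBayes, the replicate block, a fixed or random term for slide, the methods' t-test, other rules for several probes and each array left out. The F-test of the replicate number was added after seeing the data. Figures were drawn with matplotlib 3.10.9.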

Additional observations from a re-analysis of the deposited data

How the results depend on the processing

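Of 875 values of single members under the alternatives, 785 kept their direction and their side of the threshold, 52 had the opposite sign, 31 passed the threshold only under the alternative and 7 no longer passed. At P1 the number of called members was 0, and 1 with no filter on dim probes (ATOH1, of which 1 of the 6 P1 arrays was detected, so the call is no sign of a rise), 1 with the replicate block and 1 with slide as a block (both KCNA1). For the difference between passages it was 0, and 1 with the replicate block (NPR3), 1 with averaged probes (PDLIM3) and 2 with the second probe of a gene (NPR3 and PDLIM3). Between passages in DMEM it was 1, and 2 with trend and robust eBayes (NPR3 and PDLIM3), 3 with the replicate block (KCNA1, NPR3 and PDLIM3) and 0 after quantile normalization, with normexp, in the deposited table, with slide as a fixed or random block and with the second probe. The replicate block changed no other call of a member. The number of called members over the omissions of single arrays ranged from 0 to 4 at P1, 0 to 1 at P3, 0 to 2 for the difference between passages and 0 to 4 between passages in DMEM. The number of members with an F-test p of 0.05 or less between replicate numbers was 3, 1 with only probes detected on all 12 arrays, 0 in the deposited table, and 1 to 4 with an array left out, the lowest without P1 DMEM replicate 3. After quantile normalization, values with the opposite sign were OTX2 −0.026 and ZIC1 −0.32 at P1, BARHL1 −0.044 and KCNA1 −0.16 at P3, ZIC1 0.018 for the difference between passages. With normexp before it, they were ZIC1 −0.20 at P1, BARHL1 −0.016 and KCNA1 −0.038 at P3, WIF1 0.019 and ZIC1 0.073 for the difference between passages. Blocking for slide, they were BARHL1 −0.25 and SFRP1 −0.052 at P1, BARHL1 −0.16, NPR3 1.25 and ZIC1 0.066 at P3, BARHL1 0.090 and WIF1 0.27 for the difference between passages, BARHL1 −0.032 and KCNA1 −0.14 between passages in DMEM. For a random slide block, it was BARHL1 −0.054 between passages in DMEM. By the column labels of the deposited table, they were BARHL1 −0.30, EOMES −0.0009, KCNA1 −0.061, NPR3 −0.15, PDLIM3 −0.24 and WIF1 −0.10 at P1, BARHL1 −0.53, NPR3 0.99, OTX2 0.080, PDLIM3 0.21, SFRP1 −0.52 and ZIC1 0.36 at P3, KCNA1 0.82, NPR3 1.14, PDLIM3 0.45, SFRP1 −0.56, WIF1 0.83 and ZIC1 0.22 for the difference between passages, KCNA1 −0.11, OTX2 −0.0054, PDLIM3 −0.17, SFRP1 0.32, WIF1 −0.27 and ZIC1 −0.20 between passages in DMEM. With an array left out, signs turned within these ranges: BARHL1 −0.39 to 0.28 at P3, KCNA1 −0.56 to 0.41 at P3, OTX2 −0.26 to 0.14 at P3, SFRP1 −0.086 to 0.22 for the difference between passages. The causes were not tested. Signal over background limits ATOH1, and the arrays of slide 2 limit ZIC1, WIF1, KCNA1 and NPR3.

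Over all genes, the count called at P1 was 3439, 1135 after quantile normalization, 223 with normexp, 530 when blocked for slide and 391 in the deposited table, 901 with probes detected on all arrays and 420 with a random slide term. Higher in ACM were 3414 by the 75th percentile, 904 with quantiles, 155 with the slide block and 66 by the table. At P3 the count was 436, 1213 with no filter on dim probes, 158 with normexp, 682 blocked for slide, 1518 by the table, 242 with probes detected on all arrays, 171 by the methods' t-test and 261 with a random slide term. For the difference between passages it was 1736, 751 with quantiles, 162 with normexp, 474 by the table, 393 with probes detected on all arrays, 1005 by the methods' t-test, 717 blocked for slide and 251 with a random slide term. Higher in that difference were 13 by the 75th percentile, 140 with quantiles, 224 by the table and 550 blocked for slide. For P3 against P1 in DMEM it was 435, 917 with no filter, 141 with normexp, 141 in the table, 264 with probes detected on all arrays and 258 by the methods' t-test. Over single omitted arrays the count ranged from 2428 to 4020 at P1 and from 297 to 1251 at P3, the highest without P3 ACM replicate 3. For the difference between passages it ranged from 801 (without P3 ACM replicate 2) to 4781 (without P3 ACM replicate 1), and between passages in DMEM from 144 (without P3 DMEM replicate 2) to 994 (without P3 DMEM replicate 1).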
